A study of Homo sapiens with 12 samples.

Results

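Collagens are the main structural proteins of the extracellular matrix, and their genes were read here in breast cancer cells grown inside synthetic matrices that mimic collagen or laminin. The genes were chosen by symbol, as every entry of the deposited count table written COL, digits, A and digits, taking the first entry on an ordinary chromosome. This rule gave 43 genes of 23368 in the table and used no measured value. MDA-MB-231 cells, an established ER− basal line derived from a pleural effusion of a breast adenocarcinoma, and T47D cells, an established ER+ luminal A line, were encapsulated as single cells at 5000 cells per microliter in poly(ethylene glycol) hydrogels. The gels held a peptide crosslinker that cells can degrade and were decorated with GFOGER, the collagen mimic, or IKVAV, the laminin mimic, and both lines in both gels were collected on day 3. The gels were degraded with collagenase before RNA extraction, 3 gels were combined for each RNA replicate, and poly(A) RNA was sequenced. The 11 libraries with counts comprised 3 GFOGER and 2 IKVAV replicates of the MDA-MB-231 line and 3 GFOGER and 3 IKVAV replicates of the T47D line. A further IKVAV replicate of MDA-MB-231 cells, which its label calls an outlier, was not analysed here. Each line stands for its subtype alone, there was no library from cells outside the gels, and the labels do not say whether replicates were separate cultures, so the p-values measure a spread that may be technical.

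A collagen molecule is a triple helix of 3 chains, and the chains of one type are often encoded by several genes whose products assemble in a fixed proportion. Fibrillar collagens such as types I, II, III, V and XI form the fibers of stroma and cartilage. Type IV collagens form the sheet-like network of the basement membrane, type VIII forms hexagonal lattices, type VI forms beaded filaments, and type VII forms the fibrils that anchor epithelium to the stroma. FACIT collagens decorate fibrils, transmembrane collagens sit in the cell membrane with their helix outside, and multiplexins, types XV and XVIII, are basement membrane proteoglycans. In mammary tissue most fibrillar collagen is made by stromal fibroblasts, whereas epithelial cells contribute chains of the basement membrane. The 43 genes fell into 11 fibrillar, 6 basement membrane network, 3 hexagonal network, 5 beaded filament, 1 anchoring fibril, 10 FACIT, 4 transmembrane and 2 multiplexin genes and 1 other gene, COL28A1.

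Depth ranged from 14337035 to 18449108 gene-assigned reads, with overlapping ranges in the 4 conditions. Levels are given as cpm, the reads of a gene per 1000000 counted reads after normalisation between libraries, and 3 reads corresponded to 0.209 cpm in the smallest library. None of the 43 chains was at 0 in every library, 18 reached 100 reads in at least 1 library, and 12 stayed under 10 reads in every library. Those 12 were COL2A1, COL3A1, COL5A3, COL6A5, COL6A6, COL9A1, COL11A1, COL14A1, COL22A1, COL23A1, COL25A1 and COL28A1, with a highest count between 2 and 9, and they were too low to enter a test. All 8 luminal markers were lower in MDA-MB-231 than in T47D cells and all 4 mesenchymal markers higher, in the direction of the cell line labels. The third GFOGER library of MDA-MB-231 cells stood apart from its replicates. Of the 18 chains that reached 100 reads, 16 were highest there among the GFOGER libraries, so results below were also computed without it. Over genes above a minimum mean count, its squared differences from its replicates averaged 16.8 and 18.9 times the variance from read sampling. The third IKVAV library of T47D cells had like variance ratios to its replicates, 18.1 and 17.2.

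Reads on collagen chains made up a larger part of the MDA-MB-231 libraries. Per 100000 counted reads, 167, 161 and 206 fell on the 43 chains in the MDA-MB-231 libraries from GFOGER gels, 205 and 188 in those from IKVAV gels, and between 16.1 and 19.0 in the 6 T47D libraries. The means were 178 ± 24.7 (SD, n = 3) with GFOGER and 197 ± 11.8 (n = 2) with IKVAV for MDA-MB-231 cells, and 16.7 ± 0.566 (n = 3) and 17.4 ± 1.44 (n = 3) for T47D cells. The ranges of the lines were far apart, whereas those of the mimics overlapped in both lines. In MDA-MB-231 cells the overlap rested on GFOGER replicate 3, and without it both remaining GFOGER libraries (167 and 161) lay below both IKVAV libraries (205 and 188). In these bulk RNA measurements a change in the number of cells that express a gene and a change in RNA per cell cannot be told apart.

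**Figure D1:**
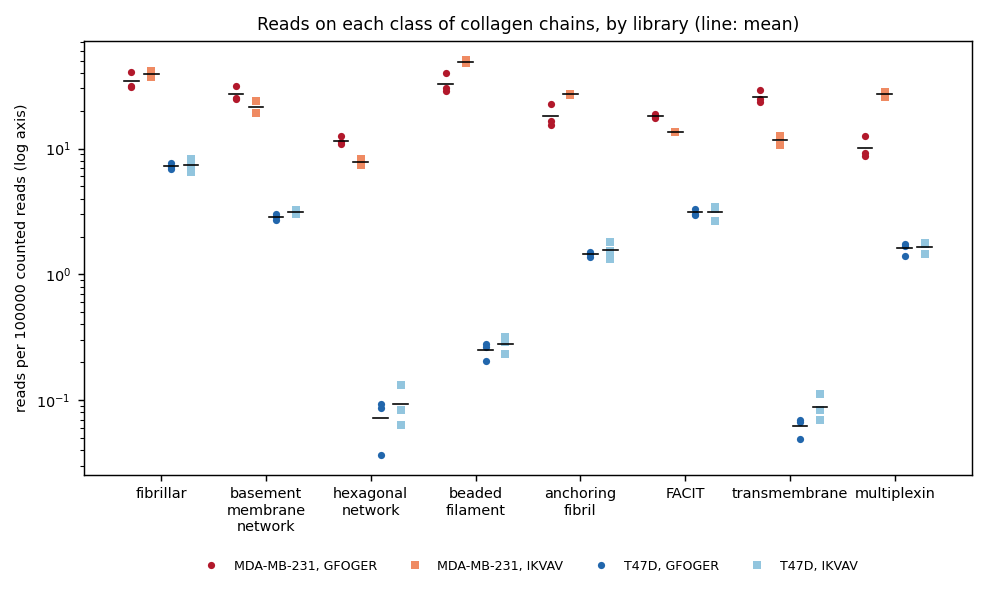
Reads on each class of collagen chains per 100000 counted reads (log axis), for each library (points) with the condition mean (line), in MDA-MB-231 and T47D cells with GFOGER or IKVAV. T47D libraries lay below MDA-MB-231 libraries in every class drawn, and within MDA-MB-231 cells the transmembrane class was higher with GFOGER (25.8 against 11.6) and the multiplexin class higher with IKVAV (27.1 against 10.1).

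The composition of the collagen reads differed between the lines. COL5A1, a fibrillar chain that nucleates and limits fibril growth, took 17.5% ± 0.365 (SD, n = 3) of the collagen reads of MDA-MB-231 cells in GFOGER gels and 18.05% ± 0.501 (n = 2) with IKVAV. COL6A1 followed, with 12.0% ± 0.743 and 17.6% ± 0.362. In T47D cells COL1A1, the major chain of type I collagen, took 36.7% ± 0.688 (n = 3) with GFOGER and 34.0% ± 1.68 (n = 3) with IKVAV, followed by the basement membrane chain COL4A5 with 16.2% ± 1.12 and 16.7% ± 1.29. Only 6 chains had at least 100 reads in every T47D library, against 17 in every MDA-MB-231 library.

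Scaled to gene length, the order of the levels changed. For MDA-MB-231 cells in GFOGER gels the leading chains were COL13A1 at 69.1 ± 9.04 cpm per kilobase (SD, n = 3), COL6A1 at 53.0 ± 11.3 and COL8A1 at 38.6 ± 3.18, and the levels of COL13A1 and COL6A1 overlapped, as did those of COL8A1 and COL5A1. With IKVAV the order was COL6A1 at 83.2 ± 3.24 (n = 2), COL18A1 at 45.4 ± 2.97 and COL5A1 at 42.9 ± 3.74, of which the last pair overlapped. T47D cells had COL1A1 first with both mimics, at 10.1 ± 0.519 cpm per kilobase with GFOGER and 9.75 ± 0.826 with IKVAV (n = 3 each). COL9A2 and COL4A5 came next in both T47D conditions, between 3.90 and 4.40 cpm per kilobase, with overlapping ranges.

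**Figure D2:**
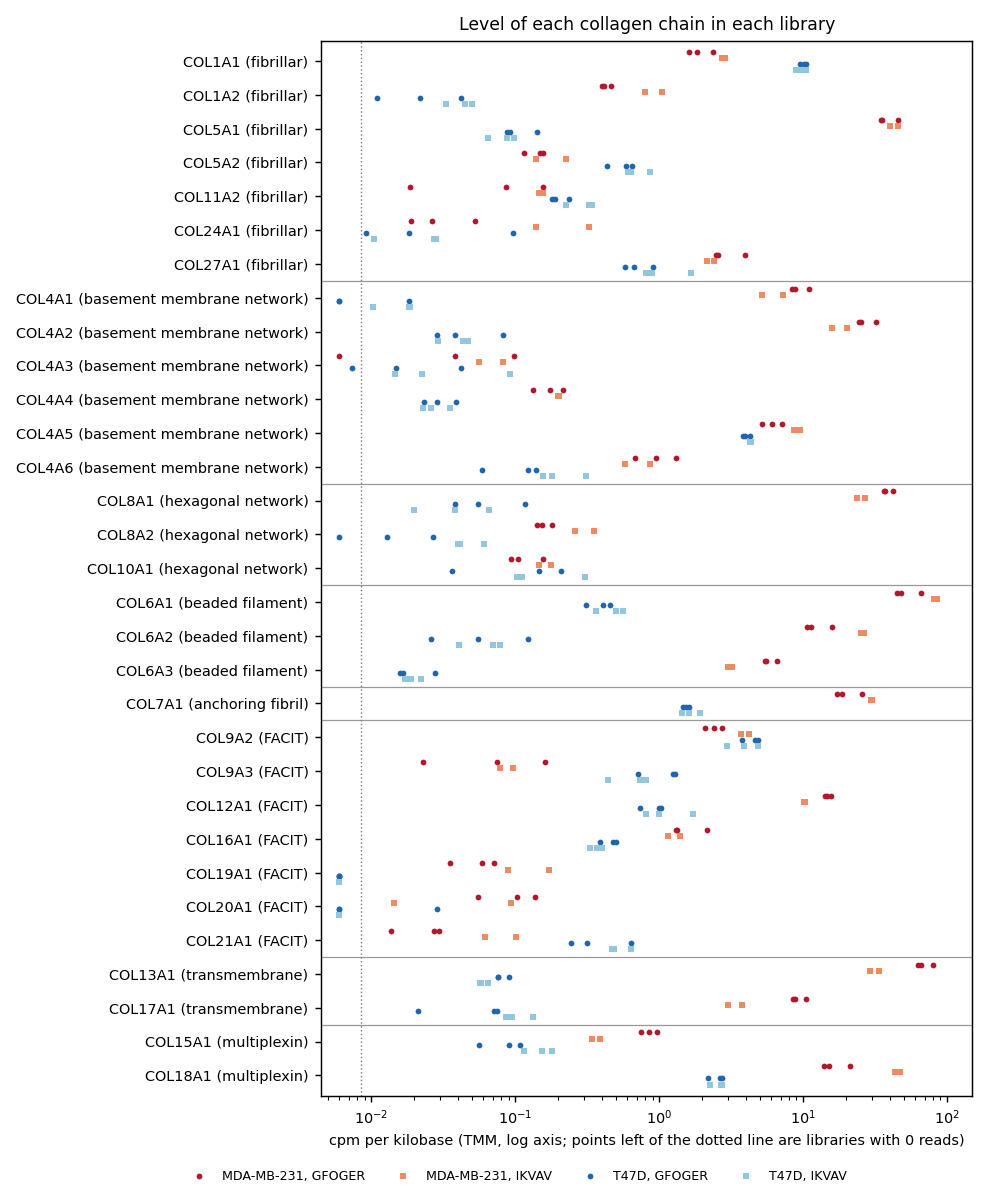
Level of each collagen chain that reached 10 reads in some library, in cpm per kilobase on a log axis, with 1 point for each library of the 4 conditions. Points left of the dotted line are libraries with 0 reads. Most chains of MDA-MB-231 cells lay above their T47D values, and COL1A1, COL5A2, COL9A3, COL21A1 and COL11A2 lay below them.

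Comparing the cell lines across both mimics, 26 of the 30 chains tested were called different by edgeR's quasi-likelihood test (Benjamini-Hochberg adjusted p under 0.05 and more than 2-fold), and 46.3% of all genes tested were called by the same rule. The MDA-MB-231 line had the higher level for 21 of them and the lower level for 5, beside 23.7% and 22.6% of all genes. A chain could enter this test through the reads of either line alone. Requiring at least 10 reads in every library left 10 chains, of which 6 were called higher and 2 lower. By that filter 4093 of 11772 genes were called. Over the 30 chains the median log2 difference was 2.84, beside -0.01 for all genes. By class, 4 fibrillar chains were higher and 3 lower, 4 basement membrane chains were higher, both hexagonal network chains of type VIII, all 3 beaded filament chains tested, the anchoring fibril chain, both transmembrane chains tested and both multiplexins were higher, and FACIT chains split into 3 higher and 2 lower. Among the chains not called, COL4A5 was higher in MDA-MB-231 cells by 0.83 ± 0.08 (SE) and COL9A2 lower by 1.34-fold, while COL4A3 and COL10A1 did not pass the adjusted p. COL10A1 lies wholly within the span of NT5DC1, which reached 492 reads, and 45 bases of COL9A3 overlap TCFL5, so their reads are uncertain where the counting did not use strand.

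The largest differences between the lines were in chains close to 0 in T47D cells. COL13A1 had 3 to 5 reads in each T47D library and 1524 to 4374 in each MDA-MB-231 library, a log2 difference of 9.34 ± 0.14 (edgeR quasi-likelihood test, Benjamini-Hochberg adjusted p = 3.4e-22). COL4A1 had 0 to 2 reads against 562 to 1252, and COL8A1, the type VIII chain of vascular and stromal lattices, had 1 to 6 reads against 1209 to 2289. COL5A1 had 9 to 20 reads against 4731 to 6773, a log2 difference of 8.73 ± 0.13 (edgeR, Benjamini-Hochberg adjusted p = 3.1e-22). COL4A2, COL6A2, COL6A3, COL6A1 and COL17A1 were higher by 8.92, 8.08, 7.71, 7.26 and 6.18 on the log2 scale. For each of these chains every MDA-MB-231 library lay above every T47D library. The libraries of the lines did not overlap for 26 of the 30 chains tested, and the share over all genes was not computed. COL19A1, a FACIT chain, had no reads in the 6 T47D libraries and was at least 24.7-fold higher in MDA-MB-231 cells, against a floor of 3 reads over all T47D libraries.

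The 5 chains called higher in T47D cells were 3 fibrillar and 2 FACIT chains. COL1A1 stood at 60.4, 62.2 and 56.2 cpm with GFOGER and 62.2, 58.7 and 52.5 cpm with IKVAV in T47D cells, against 10.8, 9.58 and 14.02 cpm and 16.1 and 17.1 cpm in MDA-MB-231 cells. No library of one line reached the range of the other, and COL1A1 was 4.24-fold higher in T47D cells (edgeR quasi-likelihood test, Benjamini-Hochberg adjusted p = 3.4e-14). COL5A2, the partner of COL5A1, was 3.91-fold higher in T47D cells, with 2.99 to 6.04 cpm against 0.804 to 1.56 cpm. COL9A3, a chain of the cartilage FACIT type IX, was 9.43-fold higher, COL21A1, a FACIT chain, 10.0-fold, and COL11A2, a minor fibrillar chain of cartilage, 2.11-fold. COL2A1, the fibrillar collagen of cartilage, had 2 to 9 reads in each T47D library and 0 in all 5 MDA-MB-231 libraries, which put T47D cells at least 8.85-fold higher against a floor of 3 reads over the line.

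The other called chains with a level of 1 cpm or more in some condition were lower in T47D cells. COL7A1 stood at 14.2, 13.4 and 14.7 cpm with GFOGER and 17.7, 14.9 and 13.2 cpm with IKVAV in T47D cells and was 15.5-fold higher in the MDA-MB-231 line. COL12A1 stood at 8.498, 11.6 and 12.0 cpm and at 11.6, 9.40 and 20.0 cpm, and was 11.8-fold higher in the MDA-MB-231 line. COL18A1 and COL15A1 were 10.9-fold and 4.91-fold higher there. COL16A1, a FACIT chain, had 2.81, 2.68 and 2.16 cpm and 2.24, 2.07 and 1.84 cpm in T47D cells, against 7.32, 7.42 and 12.0 cpm and 7.78 and 6.39 cpm in MDA-MB-231 cells. COL27A1 was higher by 2.92-fold, COL4A6 by 5.57-fold, COL4A4 by 6.24-fold, COL8A2 by 8.27-fold and COL1A2 by 18.3-fold. Among these chains the libraries of the lines did not overlap. COL24A1 was 2.81-fold higher with overlapping libraries, and its call was lost without MDA-MB-231 GFOGER replicate 3 or IKVAV replicate 2 (log2 differences of 1.25 and 1.11), as was that of COL11A2 without MDA-MB-231 GFOGER replicate 2 (-0.85). COL4A3 was called only without MDA-MB-231 GFOGER replicate 1 (1.18) or T47D IKVAV replicate 1 (1.45).

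The partners of one collagen type were unevenly expressed. In T47D cells COL1A2, the second chain of type I, had 1 to 4 reads per library, in the libraries where COL1A1 led all chains. The ratio of COL1A1 to COL1A2 per kilobase was 4.53 ± 0.587 (SD, n = 3) for MDA-MB-231 cells in GFOGER gels and 3.11 ± 0.699 (n = 2) in IKVAV gels, and in each T47D library it was above 209, a value set by those few COL1A2 reads. Type V showed the reverse, with COL5A1 over COL5A2 at 276 ± 34.4 and 246 ± 61.0 in MDA-MB-231 cells but 0.196 ± 0.0538 and 0.121 ± 0.0296 (n = 3 each) in T47D cells. COL3A1, which builds fibrils together with types I and V, had at most 4 reads in any library.

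GFOGER and IKVAV were then compared within MDA-MB-231 cells. Of the 27 chains that passed the filter on low counts, 7 were called, 3 higher and 4 lower with GFOGER, beside 9.57% of all genes tested (3.12% higher and 6.46% lower). The 3 higher chains were the transmembrane chains COL17A1 and COL13A1 and the multiplexin COL15A1. The 4 lower chains were the fibrillar chains COL24A1 and COL1A2, the multiplexin COL18A1 and the beaded filament chain COL6A2. A chain could enter this test through the reads of either mimic alone. COL24A1 entered through IKVAV, with 14 and 35 reads there and 2 to 6 with GFOGER, so its call carries little weight. By adjusted p alone 17 chains passed, 8 higher and 9 lower, beside 42.8% of all genes. The median log2 change of the tested chains was -0.37, beside 0.00 for all genes tested, and the 16 chains that did not reach 10 reads often enough could not be compared. The libraries of the mimics did not overlap for 20 of the 27 chains, 9 of them higher with GFOGER. The share of all genes without overlap was not computed, so a lack of overlap does not set apart the chains named below.

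**Figure D3:**
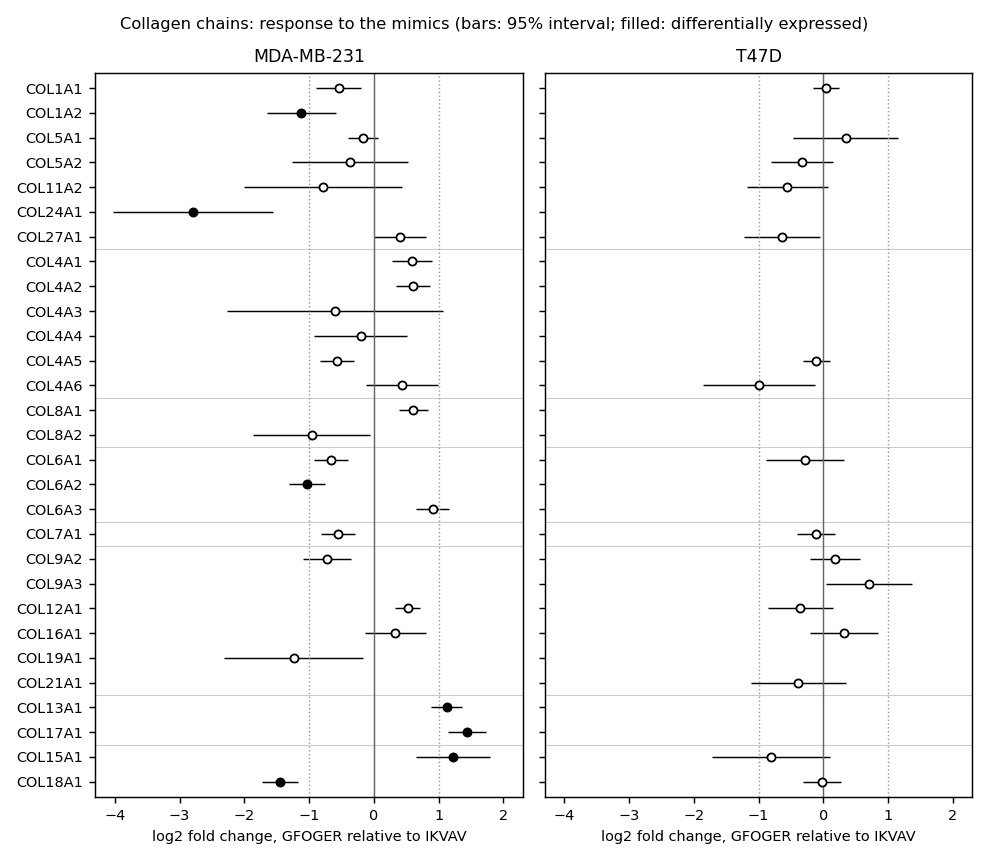
Log2 fold change of GFOGER over IKVAV (points, with 95% intervals) for the collagen chains tested in MDA-MB-231 and T47D cells, in order of class, with filled points for called chains and dotted lines at 2-fold. In MDA-MB-231 cells COL17A1 (1.44), COL15A1 (1.21) and COL13A1 (1.12) lay farthest above 0 and COL24A1 (-2.79) and COL18A1 (-1.45) farthest below, whereas no chain was called in T47D cells.

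Both transmembrane chains that were detected rose with GFOGER. COL13A1, found at cell adhesions and cell junctions, stood at 205, 196 and 249 cpm with GFOGER and at 106 and 91.9 cpm with IKVAV. All GFOGER libraries lay above both IKVAV libraries, and the log2 change was 1.12 ± 0.11 (SE), or 2.18-fold (edgeR quasi-likelihood test, Benjamini-Hochberg adjusted p = 8.5e-07). COL17A1, the hemidesmosome collagen that ties epithelial cells to the basement membrane, had 49.1, 47.8 and 59.0 cpm with GFOGER against 21.1 and 17.0 cpm with IKVAV. Its libraries did not overlap either, with a log2 change of 1.44 ± 0.14, or 2.71-fold (edgeR, Benjamini-Hochberg adjusted p = 5.9e-07). Leaving out any library kept both calls, with log2 changes between 1.02 and 1.23 for COL13A1 and between 1.29 and 1.60 for COL17A1. The other transmembrane chains, COL23A1 and COL25A1, had at most 2 reads in a library.

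The promoters of these genes are shown because both chains moved together. Each line gives the 250 bases before the RefSeq start of the gene (GRCh38.p14), 5′ to 3′ on the strand of the gene, at chr10:69801656-69801905 on the plus strand for COL13A1 and chr10:104085881-104086130 on the minus strand for COL17A1. Capitals mark matches on either strand to 4 motifs. The TATA box was searched as TATAAA, the GC box as GGGCGG, the AP-1 site as TGANTCA, and the CCAAT box by the letters of its name.
COL13A1: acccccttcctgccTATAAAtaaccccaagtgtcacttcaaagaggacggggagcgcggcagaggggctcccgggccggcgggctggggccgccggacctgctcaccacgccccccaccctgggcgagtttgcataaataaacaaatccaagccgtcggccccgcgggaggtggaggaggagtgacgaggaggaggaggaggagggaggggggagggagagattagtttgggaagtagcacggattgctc
COL17A1: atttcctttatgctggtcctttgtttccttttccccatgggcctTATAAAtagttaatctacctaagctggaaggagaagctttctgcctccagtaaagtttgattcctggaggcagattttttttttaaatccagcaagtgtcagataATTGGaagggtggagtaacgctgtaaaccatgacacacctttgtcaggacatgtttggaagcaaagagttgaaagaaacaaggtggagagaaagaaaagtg
Both windows held a match to the TATA box letters, in each near the 5′ end of the window and away from the start of the gene. Such a match at any place in the window occurred in 5 of the 31 collagen genes with a promoter entry. It occurred in 10.7% of 35116 RefSeq promoter windows of this length. GC boxes occurred in 18 of the 31 and in 42.6% of all promoters, CCAAT boxes in 9 and 32.0%, and AP-1 letters in 0 and 6.57%. Matches describe these letters in this window only. COL1A1, COL1A2, COL2A1, COL3A1, COL5A2, COL6A1, COL6A5, COL8A1, COL9A3, COL14A1, COL20A1 and COL22A1 had no entry.

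The multiplexins moved in opposite directions. COL18A1, whose C-terminal fragment is endostatin, stood at 91.2, 84.7 and 127 cpm with GFOGER and 287 and 262 cpm with IKVAV in MDA-MB-231 cells. The highest GFOGER library was well under the lowest IKVAV library, and COL18A1 fell by 1.45 ± 0.13 on the log2 scale, or 2.73-fold (edgeR quasi-likelihood test, Benjamini-Hochberg adjusted p = 2.0e-07). COL15A1, its relative in basement membrane zones, had 3.94, 4.51 and 5.13 cpm with GFOGER and 1.82 and 2.05 cpm with IKVAV. It rose by 1.21 ± 0.27, or 2.32-fold, without overlap (edgeR, Benjamini-Hochberg adjusted p = 0.0018), on 28 to 90 reads per library. Both calls held without any 1 library. An antisense gene, COL18A1-AS1, overlaps 5355 bases of COL18A1 and had at most 21 reads.

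Type VI collagen, whose 3 classical chains assemble together, changed unevenly. COL6A2 stood at 49.6, 46.5 and 68.6 cpm with GFOGER and 115 and 109 cpm with IKVAV, and fell by 1.04 ± 0.13 on the log2 scale (edgeR quasi-likelihood test, Benjamini-Hochberg adjusted p = 1.2e-05). COL6A1 had 203, 189 and 278 cpm against 361 and 342 cpm and also fell, by 0.66 ± 0.12 (edgeR, Benjamini-Hochberg adjusted p = 0.00038), which is under 2-fold. COL6A3, the long chain, went the other way, with 59.3, 58.5 and 71.1 cpm against 34.4 and 32.3 cpm. It rose by 0.91 ± 0.12, or 1.88-fold (edgeR, Benjamini-Hochberg adjusted p = 1.8e-05). None of the 3 chains had overlapping libraries. The ratio of COL6A3 to COL6A1 per kilobase was 0.113 ± 0.0109 (SD, n = 3) with GFOGER and 0.0375 ± 0.000204 (n = 2) with IKVAV, and COL6A1 to COL6A2 was 4.19 ± 0.0238 and 3.23 ± 0.00692. COL6A2 lay close to the 2-fold limit and was not called without GFOGER replicate 1 or 2 or IKVAV replicate 1, with log2 changes of -0.97, -0.94 and -0.998.

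The COL6A2 and COL6A3 genes, whose products join in one molecule while their RNAs moved apart, lie on different chromosomes, at chr21:47518033-47552763 and chr2:238232655-238322850 (hg19). Their promoter windows are printed for comparison, from RefSeq (GRCh38.p14) at chr21:46097862-46098111 on the plus strand and chr2:237414165-237414414 on the minus strand, with capitals as above.
COL6A2: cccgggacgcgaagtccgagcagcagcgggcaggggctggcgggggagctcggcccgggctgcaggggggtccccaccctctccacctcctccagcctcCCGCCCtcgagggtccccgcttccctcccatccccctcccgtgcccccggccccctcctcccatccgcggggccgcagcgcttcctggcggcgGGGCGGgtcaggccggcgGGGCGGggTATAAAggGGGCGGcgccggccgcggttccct
COL6A3: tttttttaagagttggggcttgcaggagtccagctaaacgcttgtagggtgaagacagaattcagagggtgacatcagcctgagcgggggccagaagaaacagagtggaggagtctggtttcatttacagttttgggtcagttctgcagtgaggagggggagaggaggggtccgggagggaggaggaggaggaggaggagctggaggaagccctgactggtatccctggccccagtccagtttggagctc
The COL6A2 window held 4 GC boxes and 1 TATA box in 79.6% G and C, and the COL6A3 window held none of the 4 motifs in 56.0% G and C. COL6A1 lies 93069 bases from COL6A2 on the same chromosome.

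**Figure D4:**
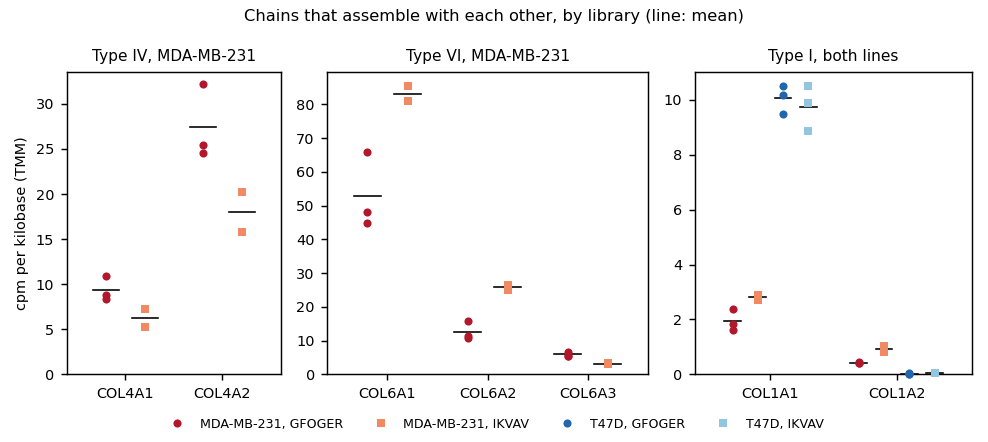
Levels in cpm per kilobase of chains that assemble with each other, for each library (points) with the condition mean (line), for types IV and VI in MDA-MB-231 cells and type I in both lines. COL6A1 and COL6A2 were lower and COL6A3 higher with GFOGER, COL4A1 and COL4A2 were both higher, and in T47D cells COL1A1 was near 10 whereas COL1A2 was near 0.

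Of the 6 basement membrane chains tested in MDA-MB-231 cells, 0 were called by edgeR or by DESeq2. Of them 3 passed the adjusted p and the unadjusted p, beside 42.8% of all genes tested by the adjusted p alone. COL4A1 and COL4A2, which together form the ubiquitous type IV molecule, rose by 0.58 ± 0.15 and 0.60 ± 0.12 on the log2 scale (edgeR quasi-likelihood test, Benjamini-Hochberg adjusted p = 0.0039 and 0.0011). COL4A1 had 57.3, 54.7 and 71.3 cpm with GFOGER against 47.2 and 33.9 cpm with IKVAV, and COL4A2 had 154, 159 and 202 cpm against 127 and 98.8 cpm. The libraries did not overlap, and the ratio of COL4A1 to COL4A2 per kilobase was 0.342 ± 0.0139 (SD, n = 3) and 0.343 ± 0.0202 (n = 2). COL4A5, a chain of the kidney and lung basement membrane, fell by 0.57 ± 0.13 (edgeR, Benjamini-Hochberg adjusted p = 0.0018), from 61.5 and 56.0 cpm with IKVAV to 39.6, 33.6 and 46.2 cpm with GFOGER. COL4A3, COL4A4 and COL4A6 did not pass, with log2 changes of -0.60, -0.21 and 0.44.

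COL4A1 and COL4A2 are transcribed away from each other, and in the deposited table their spans on chromosome 13 were separated by 134 bases. The interval is printed because both chains moved by a like amount in the same libraries. It is chr13:110959497-110959630 (GRCh37, plus strand, which is the strand of COL4A2), with capitals for 1 CCAAT box and 1 GC box.
COL4A1 to COL4A2: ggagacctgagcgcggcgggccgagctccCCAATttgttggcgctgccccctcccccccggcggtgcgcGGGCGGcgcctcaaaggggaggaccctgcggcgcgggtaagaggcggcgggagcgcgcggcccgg
The other type IV pairs were arranged in the same way, with 5 bases between COL4A4 and COL4A3 and 369 bases between COL4A6 and COL4A5. COL4A5 and COL4A6 did not move together, with log2 changes of -0.57 and 0.44, and only COL4A5 passed the adjusted p. Neither COL4A3 nor COL4A4 passed. The part of the shared interval in these changes was not tested.

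Of the hexagonal network chains, COL8A1 rose by 0.60 ± 0.11 on the log2 scale in MDA-MB-231 cells (edgeR quasi-likelihood test, Benjamini-Hochberg adjusted p = 0.00025). It had 115, 112 and 130 cpm with GFOGER against 83.1 and 72.9 cpm with IKVAV, without overlap. Its partner COL8A2 had 0.627 to 0.804 cpm against 1.17 and 1.57 cpm and did not pass (log2 change -0.96, edgeR, Benjamini-Hochberg adjusted p = 0.080). COL7A1, the anchoring fibril chain, had 170, 158 and 237 cpm with GFOGER and 271 and 277 cpm with IKVAV. It fell by 0.55 ± 0.13 (edgeR, Benjamini-Hochberg adjusted p = 0.0022), which is 1.46-fold and under the limit for a call.

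Among the fibrillar chains of MDA-MB-231 cells, 7 were tested and the most abundant one did not pass. Of the 7, 2 were called lower with GFOGER, beside 6.46% of all genes tested. COL1A2 had 2.17, 2.23 and 2.51 cpm with GFOGER and 5.64 and 4.34 cpm with IKVAV, and fell by 1.12 ± 0.25 (edgeR quasi-likelihood test, Benjamini-Hochberg adjusted p = 0.0020), on 36 to 87 reads. COL1A1 fell by 0.54 ± 0.17 (edgeR, Benjamini-Hochberg adjusted p = 0.015). COL24A1, a minor fibrillar chain known from developing bone, had 0.172, 0.124 and 0.342 cpm against 0.908 and 2.11 cpm, from 2 to 6 reads with GFOGER and 14 and 35 with IKVAV. It fell by 2.79 ± 0.58 (edgeR, Benjamini-Hochberg adjusted p = 0.0011). COL5A1, at 296, 292 and 386 cpm against 384 and 340 cpm, had overlapping libraries and a log2 change of -0.17 ± 0.11 (edgeR, Benjamini-Hochberg adjusted p = 0.24). Without IKVAV replicate 1 COL1A2 was at -0.92, and without IKVAV replicate 2 COL24A1 was at -2.05 with an adjusted p of 0.074 by the same edgeR test, so neither was then called.

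Of the 10 FACIT chains 4 were tested in MDA-MB-231 cells, and 0 were called by edgeR or by DESeq2. Of those tested 2 passed the adjusted p alone, beside 42.8% of all genes tested, and 3 had an unadjusted p under 0.05. COL12A1, which links fibrils to their surroundings, had 181, 169 and 164 cpm with GFOGER and 118 and 120 cpm with IKVAV. It rose by 0.52 ± 0.09 (edgeR quasi-likelihood test, Benjamini-Hochberg adjusted p = 0.00032). COL9A2 fell by 0.73 ± 0.18 (edgeR, Benjamini-Hochberg adjusted p = 0.0037), with 5.89, 6.86 and 7.69 cpm against 11.9 and 10.5 cpm. COL16A1 overlapped between the mimics, with a log2 change of 0.33 ± 0.22. COL19A1, at 5 to 25 reads, did not pass over all libraries (log2 change -1.24, edgeR, Benjamini-Hochberg adjusted p = 0.059) and was called without GFOGER replicate 3, at -1.46.

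In T47D cells 16 chains were tested and 0 were called by edgeR's quasi-likelihood test, where 0.022% of all genes tested were called. DESeq2 also called 0, and 3 chains had an unadjusted p under 0.05, beside 11.2% of all genes. These were COL4A6 (log2 change -0.99), COL27A1 (-0.64) and COL9A3 (0.71), with edgeR Benjamini-Hochberg adjusted p of 0.38, 0.41 and 0.42. COL1A1 differed by 0.05 ± 0.09, with a 95% interval of 0.20 to either side. COL4A5 differed by -0.11 ± 0.10 and COL18A1 by -0.02 ± 0.14, with 95% intervals of 0.21 and 0.30 to either side. These intervals leave out a 2-fold change in the most abundant chains, whereas COL15A1, on 5 to 16 reads, had -0.80 with 0.91 to either side.

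Whether the mimics acted differently in the lines was tested as an interaction, over 30 chains. edgeR called 5 of them, 3 with a more positive and 2 with a more negative GFOGER effect in MDA-MB-231 cells, beside 6.43% of all genes tested (2.25% positive and 4.18% negative). COL18A1 had a difference of effects of -1.42 ± 0.20 on the log2 scale (edgeR quasi-likelihood test, Benjamini-Hochberg adjusted p = 6.9e-05). In T47D cells it stood at 16.0, 16.6 and 13.2 cpm with GFOGER and 16.5, 16.3 and 13.6 cpm with IKVAV, which overlap. COL17A1 differed by 2.33 ± 0.48 and COL15A1 by 2.03 ± 0.49 (edgeR, Benjamini-Hochberg adjusted p = 0.0019 and 0.0059), on T47D counts of 2 to 11 and 5 to 16 reads. COL27A1, a fibrillar chain of cartilage, differed by 1.04 ± 0.37 (edgeR, Benjamini-Hochberg adjusted p = 0.049). It had 14.2, 13.9 and 22.1 cpm against 13.4 and 11.9 cpm in MDA-MB-231 cells and 3.71, 5.06 and 3.25 cpm against 9.29, 5.00 and 4.51 cpm in T47D cells, and neither line alone passed. COL24A1 differed by -3.66 ± 1.10 (edgeR, Benjamini-Hochberg adjusted p = 0.022), with 11 of its reads in T47D GFOGER replicate 3. COL24A1 and COL27A1 were not called without that library, at -2.12 and 0.91, which left 3 calls. COL27A1 was also lost without T47D GFOGER replicate 1 or IKVAV replicate 1, or without MDA-MB-231 GFOGER replicate 3 or either IKVAV library, and COL24A1 without MDA-MB-231 IKVAV replicate 2, at -2.93. For COL13A1, with 3 to 5 reads in each T47D library, the difference of 0.70 ± 0.60 could not be separated from 0 (edgeR, Benjamini-Hochberg adjusted p = 0.46).

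The genes that process, bind and cut collagen were read from lists written for the same pathway. Counts of called genes in these lists for MDA-MB-231 cells stand beside 9.57% of all genes tested. Of 17 tested genes of chain hydroxylation, glycosylation and folding, 1 was called. This was GLT25D2, a collagen galactosyltransferase, at 46.5, 48.3 and 49.7 cpm with GFOGER and 162 and 144 cpm with IKVAV, a fall of 1.68 ± 0.10 on the log2 scale (edgeR quasi-likelihood test, Benjamini-Hochberg adjusted p = 2.2e-09). Of 5 propeptide processing genes, ADAMTS14, a procollagen N-proteinase, fell by 2.55 ± 0.14 and PCOLCE2, a procollagen C-proteinase enhancer, rose by 1.82 ± 0.50. The 6 crosslinking enzymes had 0 calls by edgeR and by DESeq2. Of them 3 passed the adjusted p alone, beside 42.8% of all genes tested, and 3 had an unadjusted p under 0.05. Of 4 fibril-associated proteoglycans, FMOD fell by 3.15 ± 0.21, from 14.5 and 13.5 cpm to 1.31, 1.73 and 1.71 cpm, and LUM by 1.14 ± 0.33. The median log2 changes of these 4 lists, in the order given, were -0.14, -0.44, 0.18 and -0.61.

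Of 8 collagen receptors tested 5 were called, all lower with GFOGER, beside 6.46% of all genes called lower. DESeq2 called 4 of the 8, and 3 of the 8 had a positive log2 change. The median log2 change of the 8 receptors was -1.08, beside 0.00 for all genes. ITGA10 fell by 2.48 ± 0.12 and ITGA1 by 2.11 ± 0.10, both alpha subunits of collagen-binding integrins, and MRC2, the endocytic collagen receptor, by 1.41 ± 0.11. ITGA1 stood at 142, 140 and 116 cpm with GFOGER and 561 and 581 cpm with IKVAV, without overlap. Of 6 collagenases and gelatinases 2 rose and 2 fell, beside 3.12% and 6.46% of all genes, with a median log2 change of 0.02. DESeq2 called 3 of the 6. MMP1, the interstitial collagenase, rose by 2.44 ± 0.10 and MMP9, a gelatinase, by 1.11 ± 0.22. MMP2, the other gelatinase, fell by 1.82 ± 0.60 and MMP13 by 1.46 ± 0.40, both on levels under 3 cpm. In T47D cells 0 genes of these 6 lists were called by edgeR or by DESeq2, and 8 of 38 tested had an unadjusted p under 0.05, beside 11.2% of all genes.

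Markers of fibroblasts, the main source of fibrillar collagen in tissue, were low but not even. The summed level of 8 fibroblast markers was 8.98 to 11.2 cpm in MDA-MB-231 libraries from GFOGER gels and 16.7 to 20.3 cpm with IKVAV, and 6.96 to 8.88 cpm in T47D libraries. DCN and THY1 had no reads with IKVAV and at most 1 with GFOGER in MDA-MB-231 cells. Of the 3 markers tested, LUM and PDGFRB were called lower with GFOGER, beside 6.46% of all genes tested. PDGFRB fell by 1.29 ± 0.21 on the log2 scale (edgeR quasi-likelihood test, Benjamini-Hochberg adjusted p = 0.00012). LUM and PDGFRB went in the direction of COL1A1 and COL1A2, whereas the other marker tested had a positive log2 change and was not called. The part of these markers in the result was not tested. Endothelial markers summed to 23.9 to 28.1 cpm and leukocyte markers to 8.12 to 11.3 cpm in MDA-MB-231 libraries. Of their 3 tested members 0 were called between the mimics by edgeR or by DESeq2. The 2 endothelial markers tested passed the adjusted p alone and the unadjusted p, beside 42.8% of all genes tested by the adjusted p alone.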

How the data were processed

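Cells of both lines in GFOGER or IKVAV matrices were sequenced after poly(A) capture with a stranded kit. Per the labels and the methods, the authors trimmed, aligned (TopHat2 2.1.0, hg19) and counted reads per gene (HTSeq 0.6.1p1), and the submitters' processing notes also list Trim Galore 0.4.4, SAMtools 1.4, bedtools 2.17, FastQC and edgeR 3.16.5. The strand option of the counting is not given in the sources used here. The authors deposited raw read counts per gene and library without normalization. The deposited RPKM values were used only for the library totals they imply, which fell into a set of 6 libraries (19898878 to 22840524) and a set of 5 (5191201 to 5774966).

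The table had 24656 rows under 23368 symbols. The 1288 repeat rows were left out, of which 6 held a count, and the 6 repeat rows of COL11A2 held 0. No count column belonged to a sample of another series. Counts were analysed in R 4.3.3 with edgeR 4.0.16 (TMM, filterByExpr, quasi-likelihood test, Benjamini-Hochberg over all genes tested), limma 3.58.1 and DESeq2 1.42.0. Genes were called at an adjusted p under 0.05 and an absolute log2 fold change above 1. Each line was fitted alone for the mimics, and the 4 conditions together for the lines and the interaction. Levels are TMM-normalised cpm, divided by the table's gene length where genes are compared. Intervals of log2 changes come from the edgeR fit and include the spread between libraries, whereas floors of 3 reads cover counting error only. The tests were checked on simulated counts.

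Squared differences between libraries of the same condition averaged 2.50 to 18.9 times the variance from read sampling, so none was a repeat of another in its condition. Libraries of different conditions were not compared in this way. Deviations of same-numbered libraries had correlations between -0.122 and 0.0463 across genes, which gave no sign of pairing by number. With so few libraries per condition this check cannot exclude a shared culture or day. Per-library values are given for most chains called in any comparison at 1 cpm or more and for the top 3 per kilobase in each condition, some of them in 1 line only. COL4A4, COL4A6, COL5A2, COL8A2, COL9A3, COL11A2, COL19A1 and COL21A1 were also called but are given by fold difference or range. Other chains are given by range and count, and up to 3 increases and 3 decreases are named per pathway list. The members, lists and tests were chosen with earlier results of these data known. Other chains are named to complete a class or partner pair and were chosen after their values were seen. Promoter sequences came from RefSeq, with the first start listed where a gene had several, and 31 of 43 genes matched. Alternatives were DESeq2, other normalizations, filters and thresholds, the replicate number as a block, all conditions in one fit and each library left out.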

Additional observations from a re-analysis of the deposited data

Results flagged for a closer look

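The effect of the mimic differed between the cell lines for 5 chains in the interaction test of edgeR, as the difference of the log2 changes of GFOGER over IKVAV, MDA-MB-231 minus T47D. The values were -3.66 for COL24A1, 2.33 for COL17A1, -1.42 for COL18A1, 2.03 for COL15A1 and 1.04 for COL27A1. COL18A1 moved in MDA-MB-231 cells and had overlapping libraries in T47D cells. COL17A1, COL15A1 and COL24A1 had at most 16 reads in any T47D library. COL27A1 was called in neither line alone.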

How the results depend on the processing

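The 7 calls between the mimics in MDA-MB-231 cells became 17 by the adjusted p alone and 3 with the 2-fold limit inside the test, and 5 to 8 when each library was left out. T47D cells had 0 throughout, leaving out each library included. The 26 chains called between the lines became 8 with at least 10 counts in every library, where 10 chains were tested, and 25 to 27 without a library. The 5 interaction calls became 1 with that filter, 8 by the adjusted p alone, 0 with the 2-fold limit inside the test, and 3 to 6 without a library, the 3 being without T47D GFOGER replicate 3. With the replicate block the counts were 7, 0, 26 and 5, and 4 of the last 5 were shared. The correlations of same-numbered libraries gave no sign of such a pairing but could not exclude it. Fits with the set of RPKM totals as a term were chosen after seeing the data. The set of smaller totals held MDA-MB-231 IKVAV replicate 1, every T47D GFOGER library and T47D IKVAV replicate 3. Within MDA-MB-231 cells the term therefore acted much like leaving out IKVAV replicate 1. Within T47D cells it left IKVAV replicate 3 alone to set against GFOGER. Set and condition thus cannot be fully told apart. The mean share of reads on chains in T47D cells with GFOGER was 0.0173% without the 10 most abundant genes, beside 0.0167%. The log2 changes that turned sign were in chains that were not called. COL5A2 in MDA-MB-231 cells ran from -0.67 to 0.0062 without 1 library and came to 0.0023 with the RPKM term. In T47D cells leaving out 1 library moved COL18A1 from -0.11 to 0.070 (also 0.015 and 0.029), COL7A1 from -0.21 to 0.0079, COL12A1 from -0.57 to 0.033 and COL1A1 down to -0.018, and the RPKM term put COL18A1 at 0.17, COL7A1 at 0.10 and COL6A1 at 0.096. Between the lines COL10A1 came to 0.15 with the replicate block and 0.33 with the RPKM term. The RPKM term also ended the calls of COL1A2 (-0.92), of COL27A1 in the interaction (0.75) and of COL24A1 between the lines (1.09), and led to a call of COL19A1 (-1.63). The interaction call of COL27A1 was also lost with upper-quartile factors, library size alone, at least 10 counts in every library and the replicate block (1.005 to 1.032). Of 1172 log2 changes recomputed under the alternatives, 1132 kept their direction and their side of the threshold, and the cause of the others was not tested beyond what each alternative removes. Counts under 10 reads in T47D cells limit every comparison of their low chains.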
